A study of Mus musculus with 6 samples.

Results

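The genes described here are 37 genes of sugar breakdown and of the response to low oxygen, measured in immune cells sorted from mouse hearts. They were taken by symbol from a fixed list: 22 genes of glucose uptake, glycolysis and lactate export, and 15 genes of the hypoxia-inducible factor (HIF) pathway. All 37 were found among the 57010 genes of the count table, and 36 of them passed the filter on low counts; the exception was Eno2. Cells positive for CD45, the antigen of all leukocytes, and negative for the T cell antigen CD90.2 were purified from hearts of transgenic mice that, by the design text, express ovalbumin in the heart only (genotype Ova DTG, an abbreviation the labels do not spell out). Every mouse received OTI cells, naive CD8 T cells specific for ovalbumin (100000 cells unless stated otherwise, per the labels). The 3 libraries labelled ICI (immune checkpoint inhibitors) came from mice given 200 µg of antibody to CTLA-4 and 200 µg of antibody to PD-1, and the 3 labelled isotype from mice given isotype antibody. The labels state no age, sex, dose of isotype antibody or time after treatment, and do not say whether hearts were pooled. The titles of both groups name myocarditis.

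Glycolysis turns glucose into pyruvate in the cytosol and yields ATP without oxygen; lactate dehydrogenase and lactate export keep it running. HIF-1 and HIF-2 are dimers of an oxygen-labile alpha subunit (Hif1a or Epas1) with a stable partner. With oxygen, prolyl hydroxylases (Egln genes) mark the alpha subunit for the Vhl ubiquitin ligase, which leads to its destruction. Without it, HIF raises most glycolytic genes and many others, and in macrophages inflammatory stimuli can raise HIF-1 alpha in normal oxygen as well.

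Total counts ran from 21528274 to 30736316 per library, lower in all 3 libraries labelled ICI. Of the genes behind the sort, Ptprc, which encodes CD45, was at 949 to 1423 CPM (a gene's counts scaled to a common library total) and Thy1, which encodes CD90, at 0 to 2 counts per library. Several cell type markers moved with the labels. All 8 resident macrophage markers were higher in the libraries labelled ICI, with a summed level of 8690 to 9960 CPM against 252 to 324. General macrophage and monocyte markers split evenly (3 higher, 3 lower, 3 not called of 9; 12000 to 13500 against 9260 to 10900 CPM). The lower ones were the monocyte genes Ly6c2 (9.32-fold, 124 ± 46.8 against 1007 ± 233 CPM, SD, n = 3) and Ccr2 (2.02-fold) and the Fc receptor gene Fcgr1 (2.92-fold), which moved the same way as most glycolysis genes; the higher ones were Csf1r, Adgre1 and C1qa. All 5 B cell markers (196 to 671 against 3.89 to 8.72 CPM), 4 of 5 fibroblast (56.7 to 183 against 10.5 to 13.9), all 7 cardiomyocyte (42.8 to 55.6 against 5.48 to 13.9), 4 of 6 endothelial (32.5 to 44.5 against 21.4 to 30.9), and 3 of 6 neutrophil markers (519 to 567 against 389 to 488) were higher there too. So were all 4 natural killer cell markers (19.4 to 32.7 against 5.47 to 8.44 CPM) and all 4 erythroid markers tested (19.3 to 38.8 against 0.325 to 2.56), while of 4 T cell markers tested 2 were higher and 1 lower (11.2 to 21.7 against 1.46 to 3.42). Cd4 carried that sum (14.3 ± 4.77 against 0.621 ± 0.431 CPM, SD, n = 3), and the mean of every other T cell marker was at most 0.919 CPM in either group. A list of 14 early response and heat shock genes, a class known to react to cell isolation, was higher throughout at 19300 to 24400 against 5660 to 5970 CPM. The part of these shifts in the results below was not tested. In bulk RNA, fewer cells of a type and less RNA per cell cannot be told apart. No measured gene checks the treatment itself, so the groups are named by their labels throughout. Every direction given here rests on those labels: were they exchanged, each would turn.

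Glucose uptake, glycolysis and lactate export genes were lower in the libraries labelled ICI at nearly every step. Of the 21 tested, 20 were lower and 1, Pfkfb4, was higher; over all 14575 genes tested, 33.9% were called lower and 35.0% higher, 68.9% in all (edgeR quasi-likelihood test, Benjamini-Hochberg adjusted p under 0.05). The median log2 fold change of these 21 genes was -2.12, where that of all genes tested was 0.03. Against a change of 1.5-fold, 18 were still lower, where 16.5% of all genes passed in that direction. Together the 22 listed genes held 0.528%, 0.557% and 0.542% of all counts in the libraries labelled ICI, against 2.27%, 2.20% and 2.15% in those labelled isotype, a ratio of 4.07 between the means. For 19 of the 21, no library of one group reached into the range of the other, as was so for 73.5% of all genes tested.

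**Figure D1:**
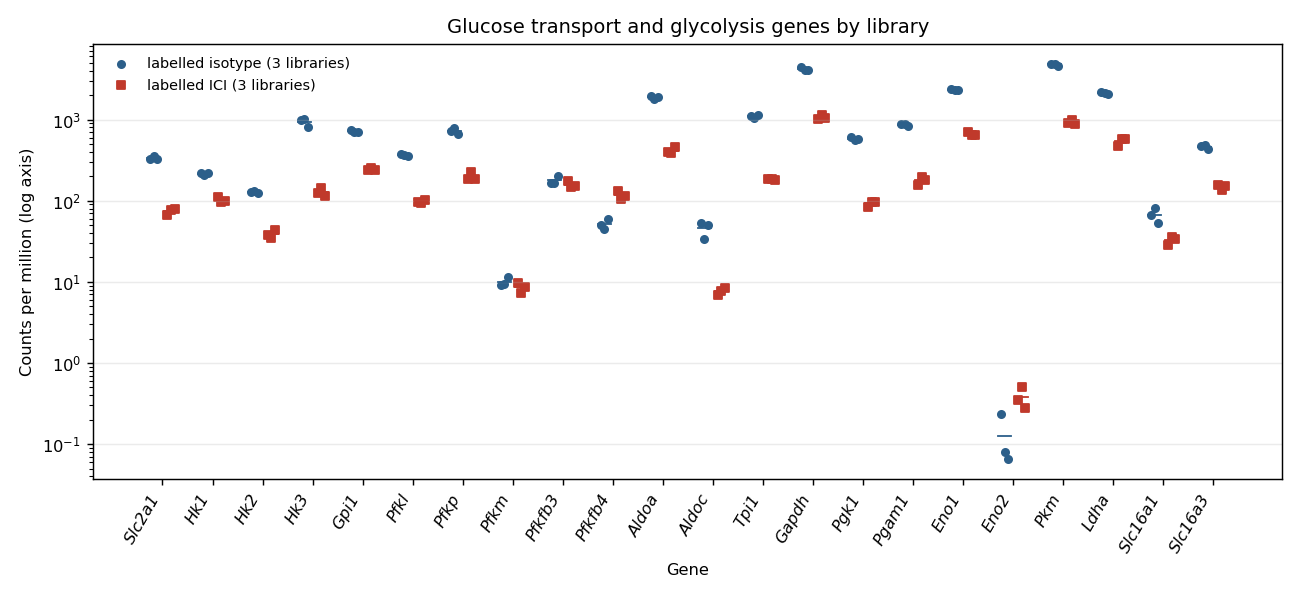
CPM (log axis) of the 22 glucose transport and glycolysis genes in pathway order, with blue circles for the 3 libraries labelled isotype, red squares for the 3 labelled ICI and short lines for group means. The groups stand apart for most genes, with Pfkm and Pfkfb3 overlapping and Pfkfb4 and the scarce Eno2 higher in the libraries labelled ICI. Overlap here is in CPM on library totals.

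Transcripts of the transporter Slc2a1 and of 3 hexokinases were lower; other glucose transporter genes, given further on, were not all so. Slc2a1 (ENSMUSG00000028645), the glucose transporter GLUT1, was at 66.3, 77.3 and 79.5 CPM in the ICI-labelled libraries and at 322, 352 and 323 CPM in those labelled isotype. It fell 5.15-fold (log2 fold change -2.37 with an SE of 0.09, adjusted p = 4.78e-08 in edgeR). Hexokinases trap glucose in the cell as glucose 6-phosphate, and the 3 genes measured fell by different amounts. Hk3 (ENSMUSG00000025877), the hexokinase typical of myeloid cells, was at 126, 142 and 116 CPM against 981, 1029 and 802 CPM, 8.45-fold lower and the largest fall among the tested members (log2 fold change -3.08 with an SE of 0.14, adjusted p = 1.07e-07 in edgeR). The inducible Hk2 was at 38.2, 34.7 and 43.8 CPM against 130, 134 and 124 CPM, 3.83-fold lower. The widely expressed Hk1 was at 110, 95.3 and 98.2 CPM against 217, 207 and 218 CPM, 2.44-fold lower. The groups stood apart for each of the 3 genes. Per kilobase of exon, Hk3 was the most abundant hexokinase in both groups, and its share of the hexokinase level was 65.2% ± 3.66 in the libraries labelled ICI and 84.4% ± 1.68 in those labelled isotype (SD, n = 3). Gpi1, which turns glucose 6-phosphate into fructose 6-phosphate, was 3.37-fold lower at 244 ± 7.22 CPM against 714 ± 22.8 CPM (SD, n = 3, edgeR adjusted p = 1.64e-07).

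The committed step, phosphofructokinase, and the enzymes that set its activator were less uniform. Pfkl, the liver-type subunit, was at 95.2, 94.1 and 102 CPM against 377, 370 and 356 CPM, 4.36-fold lower (edgeR adjusted p = 4.1e-08). Pfkp, the platelet-type subunit, was at 186, 228 and 184 CPM against 726, 780 and 668 CPM, 4.19-fold lower. Both were apart between the groups, and per kilobase of exon each made up 45.6% to 49.2% of the phosphofructokinase level in the group means. These shares rest on the summed length of all annotated exons, 6675 bases for Pfkl and 13401 for Pfkp. In CPM, Pfkp was the higher of the pair in every library. The muscle-type Pfkm was scarce and its groups overlapped in CPM on library totals, at 9.61, 7.34 and 8.69 CPM against 9.21, 9.29 and 11.4 CPM. The edgeR test also divides by scaling factors (1.052 to 1.105 for ICI, 0.921 to 0.952 for isotype), which raise isotype levels beside those labelled ICI. On that scale the overlap need not hold. The edgeR call of Pfkm (log2 fold change -0.42 with an SE of 0.15, adjusted p = 0.0288) did not hold after upper-quartile scaling (adjusted p = 0.182), and its adjusted p ranged from 0.0192 to 0.938 over the alternatives. It was also lost without replicate 2 or 3 labelled ICI (adjusted p = 0.099 and 0.0705) and without replicate 3 labelled isotype (0.0828). Pfkfb3 and Pfkfb4 encode bifunctional enzymes that make and remove fructose 2,6-bisphosphate, the activator of phosphofructokinase. On library totals Pfkfb3 overlapped as well, at 174, 149 and 151 CPM against 166, 167 and 204 CPM (log2 fold change -0.39 with an SE of 0.11, adjusted p = 0.00824 in edgeR). It did not pass after upper-quartile scaling (adjusted p = 0.116), and its adjusted p ranged from 0.00132 to 1 over the alternatives. Pfkfb4 (ENSMUSG00000025648) was the sole one of the 21 tested members called higher, at 133, 106 and 114 CPM against 50.6, 45.0 and 59.8 CPM. All 3 libraries labelled ICI lay above all 3 labelled isotype, with a 1.98-fold rise (log2 fold change 0.98 with an SE of 0.12, adjusted p = 5.59e-05 in edgeR) that kept its direction under every alternative (0.87 to 1.18).

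From aldolase to lactate dehydrogenase every tested enzyme among the members was lower, by 4.06-fold to 7.24-fold. Tested relatives outside the member list were not all lower, as with the muscle enolase Eno3 given further on. Aldoa, the main aldolase, was at 393.2, 391.7 and 461.2 CPM against 1958, 1810 and 1894 CPM, 5.24-fold lower. Aldoc, the aldolase best known from brain, held 1.62% and 2.12% of the aldolase level per kilobase and was 6.91-fold lower (7.67 ± 0.762 against 46.0 ± 10.5 CPM, SD, n = 3). Triose phosphate isomerase, Tpi1 (ENSMUSG00000023456), had the smallest p of all members. It was at 186, 187 and 182 CPM against 1109, 1044 and 1127 CPM, 6.8-fold lower (log2 fold change -2.76 with an SE of 0.09, adjusted p = 1.46e-08 in edgeR). The groups stood far apart beside an SD of 2.65 CPM and 43.4 CPM among the 3 libraries of each.

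Gapdh (ENSMUSG00000057666), the dehydrogenase that is often used as a reference gene, was at 1019, 1137 and 1061 CPM against 4430, 4052 and 4079 CPM. This was a 4.49-fold fall (log2 fold change -2.17 with an SE of 0.10, adjusted p = 1.3e-07 in edgeR). Pgk1 (ENSMUSG00000062070), the kinase that makes the first ATP of the pathway, was at 83.2, 97.5 and 97.0 CPM against 610, 566 and 569 CPM. It fell 7.24-fold (log2 fold change -2.86 with an SE of 0.09, adjusted p = 1.64e-08 in edgeR). The mutase Pgam1 was 5.55-fold lower (178 ± 22.1 against 859 ± 30.5 CPM, SD, n = 3) and the enolase Eno1 4.06-fold lower (661 ± 32.7 against 2333 ± 56.1 CPM). Reads of near-identical copies may be split between genes: Eno1b held 42 to 67 counts per library labelled ICI and 217 to 278 per library labelled isotype, and Pgam1-ps2 10 to 19 and 65 to 103. The neuronal enolase Eno2 was too scarce to test, with 8, 12 and 6 counts against 7, 2 and 2. Its pooled ratio was 2.95 towards the libraries labelled ICI (exact 95% interval 1.41 to 6.62, counting error only).

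Pyruvate kinase and lactate dehydrogenase close the pathway. Pkm was at 895, 975 and 895 CPM against 4825, 4876 and 4639 CPM, 5.97-fold lower; the annotated gene Gm49759 shares 15.3% of its exon length. Ldha, the subunit that turns pyruvate into lactate, was at 477, 574 and 573 CPM against 2173, 2143 and 2083 CPM, 4.54-fold lower. Per kilobase of exon, Gapdh and Pkm were the most abundant glycolysis members in both groups, at 259 and 184 CPM per kb in the libraries labelled ICI, against 1013 and 956 CPM per kb in the libraries labelled isotype. Lactate leaves through monocarboxylate transporters. Slc16a3 (MCT4), typical of glycolytic cells, was at 156, 135 and 151 CPM against 468, 485 and 428 CPM, 3.6-fold lower (edgeR adjusted p = 2.83e-07). Slc16a1 (MCT1) was at 28.4, 35.9 and 33.9 CPM against 67.1, 82.0 and 53.03 CPM, 2.37-fold lower (edgeR adjusted p = 0.000244). Both transporters separated the groups, and Slc16a1 varied more among the libraries labelled isotype.

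**Figure D2:**
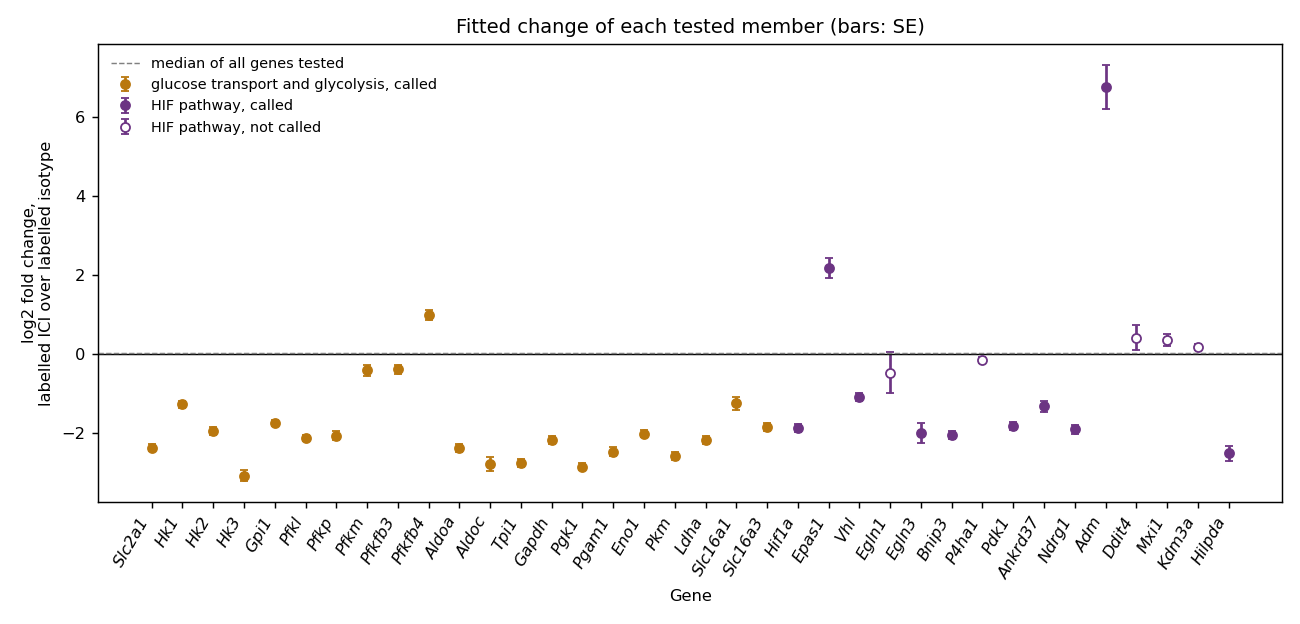
Log2 fold change of each of the 36 tested members, libraries labelled ICI over libraries labelled isotype, with SE as bars; glycolysis genes in ochre, HIF pathway genes in purple, open circles not called. Glycolysis genes run from -3.08 for Hk3 to 0.98 for Pfkfb4, while HIF pathway genes spread from -2.51 for Hilpda to 6.75 for Adm.

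Relatives of one family were compared with each other. For 10 pairs, the log2 ratio of their counts was taken within each library, and 9 pairs had no overlap between the groups, each at p = 0.1 (exact two-sided permutation test, adjusted p = 0.111 over 10 pairs). This is the smallest p that 3 against 3 libraries allow, so no pair can pass 0.05. Of all single genes tested, 73.5% did not overlap either, and the share among gene pairs at large was not computed. The ratio of Hk3 to Hk1 was 0.19, 0.57 and 0.23 on the log2 scale in the libraries labelled ICI against 2.17, 2.31 and 1.88 in the isotype libraries, a 3.45-fold difference. Pfkl and Pfkp stood against Pfkm with 3.25-fold and 3.13-fold lower ratios in the libraries labelled ICI. Pfkfb3 to Pfkfb4 was at 0.39, 0.49 and 0.40 against 1.72, 1.89 and 1.77, a 2.58-fold difference, so that Pfkfb4 made up 53.6% ± 0.97 of the pair's level per kilobase in the libraries labelled ICI and 30.9% ± 1.32 in those labelled isotype (SD, n = 3). Smaller differences were seen for Hk2 to Hk1 (1.57-fold) and Slc16a3 to Slc16a1 (1.54-fold). Aldoa to Aldoc overlapped (5.82, 5.68 and 5.77 against 5.20, 5.73 and 5.22, exact permutation p = 0.2). The ratio of Eno1 to Eno2 rests on the few Eno2 counts given above.

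**Figure D3:**
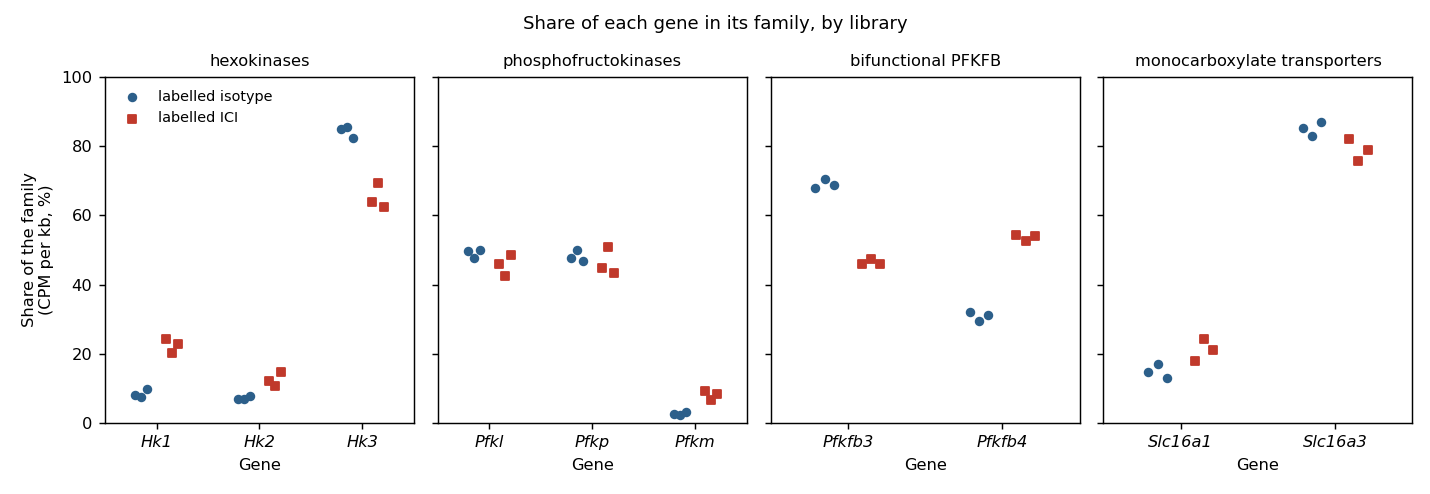
Share of each gene in its family's summed level (CPM per kilobase of exon, percent) in every library, blue circles labelled isotype and red squares labelled ICI, for 4 families. Hk3 takes 62.5% to 69.4% of the hexokinase level in the libraries labelled ICI and 82.5% to 85.7% in those labelled isotype, while the shares of Pfkl and of Pfkp overlap between the groups.

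Promoter sequence was looked at because HIF binds a short core motif. The motif was searched as ACGTG and as GCGTG, on both strands, in the 250 bases before the first listed RefSeq start of each gene (build GRCm38.p6). Of 27025 genes with such a window, 16.6% held ACGTG, 28.2% GCGTG and 38.6% either. Windows were found for all 22 glycolysis members, of which 10 (45.5%) held ACGTG and 16 (72.7%) either motif, and for 13 of the 15 HIF pathway members, of which 7 (53.8%) and 10 (76.9%) did. A match shows the letters alone, not binding, and the shares were not adjusted for base composition. The members were listed as genes of glycolysis and the HIF pathway, so their shares cannot bear on the changes seen here. Among members not called, Egln1, P4ha1, Ddit4 and Kdm3a held a motif and Mxi1 none. Among those called lower, Tpi1, Pkm, Aldoa, Gpi1, Hk1, Vhl and Hilpda held none, and the others with a window held at least 1. ACGTG also lies within the E-box CACGTG, which was found in 3 of the 22 glycolysis windows and in 6.05% of all windows. The 3 windows below belong to the glycolysis members with the smallest p among those with a match, in the order of p, read 5′ to 3′ along the gene; capitals mark the motif or its complement.
Pgk1, chrX:106186850-106187099, plus strand: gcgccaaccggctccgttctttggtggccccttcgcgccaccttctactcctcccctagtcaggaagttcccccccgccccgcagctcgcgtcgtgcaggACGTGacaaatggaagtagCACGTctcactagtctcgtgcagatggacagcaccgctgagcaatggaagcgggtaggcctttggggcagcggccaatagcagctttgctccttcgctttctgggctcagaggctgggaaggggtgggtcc
Pfkl, chr10:78009808-78010057, minus strand: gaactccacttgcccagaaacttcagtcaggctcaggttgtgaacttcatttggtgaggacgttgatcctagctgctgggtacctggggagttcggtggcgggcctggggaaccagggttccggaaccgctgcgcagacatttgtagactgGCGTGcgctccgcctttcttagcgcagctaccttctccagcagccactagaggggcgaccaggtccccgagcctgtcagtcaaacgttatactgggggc
Slc2a1, chr4:119108495-119108744, plus strand: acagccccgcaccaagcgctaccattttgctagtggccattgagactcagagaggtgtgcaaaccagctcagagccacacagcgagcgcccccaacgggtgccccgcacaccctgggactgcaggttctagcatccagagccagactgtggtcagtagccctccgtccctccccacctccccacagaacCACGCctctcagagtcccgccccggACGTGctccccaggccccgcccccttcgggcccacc

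A second set of windows was chosen after the values were seen: Ldha, which held the most ACGTG matches of any member (5 over both strands, 4 of them in 2 E-boxes, which hold it on each strand), and Pfkfb4 and Adm, the members with a window that were called higher. Pfkfb4 and Adm held GCGTG (1 and 2 matches) and no ACGTG in these windows, where 28.2% of all windows hold GCGTG.
Ldha, chr7:46845554-46845803, plus strand: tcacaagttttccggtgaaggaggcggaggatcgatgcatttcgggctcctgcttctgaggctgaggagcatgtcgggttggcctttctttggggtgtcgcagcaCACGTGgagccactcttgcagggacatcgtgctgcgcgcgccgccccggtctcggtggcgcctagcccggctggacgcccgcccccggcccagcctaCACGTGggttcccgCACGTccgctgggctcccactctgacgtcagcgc
Pfkfb4, chr9:108991652-108991901, plus strand: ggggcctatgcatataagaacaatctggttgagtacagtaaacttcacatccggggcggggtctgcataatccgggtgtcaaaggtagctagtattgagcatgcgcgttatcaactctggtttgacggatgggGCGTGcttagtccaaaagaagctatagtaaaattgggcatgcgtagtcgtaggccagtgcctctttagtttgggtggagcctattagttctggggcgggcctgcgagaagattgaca
Adm, chr7:110627407-110627656, plus strand: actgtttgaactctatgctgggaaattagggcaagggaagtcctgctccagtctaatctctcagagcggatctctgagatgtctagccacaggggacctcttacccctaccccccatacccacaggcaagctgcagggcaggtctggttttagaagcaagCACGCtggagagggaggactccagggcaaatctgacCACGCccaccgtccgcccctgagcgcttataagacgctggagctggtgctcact

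HIF pathway genes outside glycolysis were less uniform. Of 15 tested, 8 were lower, 2 higher and 5 not called in the libraries labelled ICI, against 33.9% lower and 35.0% higher over all genes. Their median log2 fold change was -1.08, between that of all genes (0.03) and that of the glycolysis members (-2.12). For 12 of the 15 the libraries of the groups did not overlap, a share near the 73.5% of all genes tested. Their summed level was 0.0671%, 0.0666% and 0.0703% of counts against 0.130%, 0.134% and 0.132%, a ratio of 1.94 where the glycolysis genes had 4.07.

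The alpha subunits went opposite ways. Hif1a (ENSMUSG00000021109) was at 154, 174 and 161 CPM in the ICI-labelled libraries and at 491, 573 and 494 CPM in those labelled isotype. It fell 3.67-fold (log2 fold change -1.88 with an SE of 0.10, adjusted p = 2.97e-07 in edgeR). Epas1 (ENSMUSG00000024140), which encodes HIF-2 alpha and is best known from endothelium, was at 5.62, 6.33 and 6.18 CPM against 1.05, 1.74 and 0.781 CPM. It rose 4.49-fold (log2 fold change 2.17 with an SE of 0.26, adjusted p = 5.23e-05 in edgeR). Both genes separated the groups. Per kilobase of exon, Hif1a stayed by far the more abundant, with 96.2% ± 0.107 of the pair's level in the libraries labelled ICI and 99.8% ± 0.0775 in those labelled isotype (SD, n = 3). The log2 ratio of Hif1a to Epas1 was 4.77, 4.78 and 4.70 against 8.85, 8.34 and 9.27, a 16.8-fold difference (exact permutation p = 0.1). The resident macrophage, endothelial and cardiomyocyte marker sums given above moved the same way as Epas1, and their part in its rise was not tested. Endothelial cells and cardiomyocytes lack CD45, for which the cells were sorted, but transcripts of their markers were counted at those sums.

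Genes that limit HIF were partly lower as well. Vhl, the substrate receptor of the ubiquitin ligase, was at 34.3, 41.8 and 38.9 CPM against 64.9, 71.5 and 75.1 CPM, 2.12-fold lower (edgeR adjusted p = 6.91e-06). Egln3, a prolyl hydroxylase that HIF itself induces, was at 1.053, 1.096 and 1.672 CPM against 5.31, 3.81 and 4.13 CPM, 4.02-fold lower (edgeR adjusted p = 6.21e-05). Both separated the groups. Egln1, the main prolyl hydroxylase, varied widely among replicates, at 49.7, 18.3 and 34.0 CPM against 27.8, 30.0 and 66.8 CPM, and was not called (log2 fold change -0.48 with an SE of 0.52, adjusted p = 0.452 in edgeR).

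Among 10 targets of HIF outside glycolysis, 5 fell, by 2.5-fold to 5.7-fold, and 1 rose, where 68.9% of all genes were called (33.9% lower, 35.0% higher). Hilpda, which blocks lipolysis at lipid droplets, was at 17.6, 15.7 and 18.7 CPM against 107, 84.7 and 65.3 CPM, 5.7-fold lower (edgeR adjusted p = 9.1e-06). Bnip3, a mitophagy receptor, was at 34.6, 28.1 and 32.6 CPM against 121, 109 and 115 CPM, 4.16-fold lower (edgeR adjusted p = 1.8e-07). An antisense gene, Gm45507, shares 22.3% of its exon length and cannot be separated without strand; 0 to 23 counts were assigned to it in the libraries labelled ICI and 65 to 139 in those labelled isotype. Ndrg1, a stress and differentiation gene, was 3.75-fold lower (30.9 ± 2.20 against 101 ± 10.6 CPM, SD, n = 3). Pdk1, which keeps pyruvate out of mitochondria by inhibiting pyruvate dehydrogenase, was 3.53-fold lower at 34.0, 36.6 and 40.0 CPM against 117, 100 and 122 CPM. Ankrd37 was 2.5-fold lower at 5.31, 5.27 and 6.83 CPM against 13.5, 11.5 and 12.6 CPM. Of its exon length, 22.7% is shared with Lrp2bp (2 to 8 counts per library) and 3.7% with Ufsp2, on the opposite strand. Ufsp2 held 946 to 1066 counts in the libraries labelled ICI and 1889 to 2394 in those labelled isotype. The part of Ufsp2 reads in the fall of Ankrd37 was not tested. All 5 separated the groups.

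Adm (ENSMUSG00000030790), the vasodilator peptide adrenomedullin, went the other way. It had 117, 89 and 129 counts in the libraries labelled ICI against 0, 0 and 3 in the isotype libraries, a ratio of 139 (exact 95% interval 47.3 to 679, counting error only; edgeR adjusted p = 6.75e-07). Nearly absent from libraries labelled isotype, it stood at 5.13, 3.75 and 5.99 CPM in those labelled ICI, all 3 of its isotype counts coming from replicate 3. Endothelial cells, fibroblasts and cardiomyocytes are known sources of adrenomedullin. The sort was for CD45, which these cells lack, but transcripts of their markers were counted at the sums given above. Their marker sums were higher in the same libraries by 1.46, 8.37 and 5.41 times between the means, and that of the resident macrophage markers by 32.5 times. The part of any of these in the rise of Adm was not tested.

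The other 4 targets were not called. P4ha1, a collagen prolyl hydroxylase subunit, was at 127, 139 and 130 CPM against 125, 125 and 131 CPM (log2 fold change -0.15 with an SE of 0.08, adjusted p = 0.111 in edgeR), and its fitted sign turned to 0.03 with upper-quartile factors. Ddit4, an inhibitor of mTORC1, was at 5.879, 2.699 and 7.386 CPM against 3.42, 3.53 and 3.38 CPM (edgeR adjusted p = 0.261). Leaving out replicate 2 labelled ICI brought it to an adjusted p of 0.00617, within a range of 0.00617 to 0.809. Mxi1, a MYC antagonist, was at 72.9, 66.5 and 80.3 CPM against 49.1, 38.9 and 63.3 CPM, and Kdm3a, a histone H3K9 demethylase, at 94.1, 94.3 and 110 CPM against 72.7, 78.3 and 78.2 CPM. In CPM on library totals neither overlapped between the groups. Neither passed with the scaling factors of the edgeR test (log2 fold change 0.34, adjusted p = 0.077, and 0.18, adjusted p = 0.0796). With upper-quartile factors, which moved the median of all genes from 0.03 to 0.21, both were called higher (adjusted p = 0.0175 and 0.00328). Mxi1 was also called without replicate 3 labelled isotype (adjusted p = 0.00636).

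**Figure D4:**
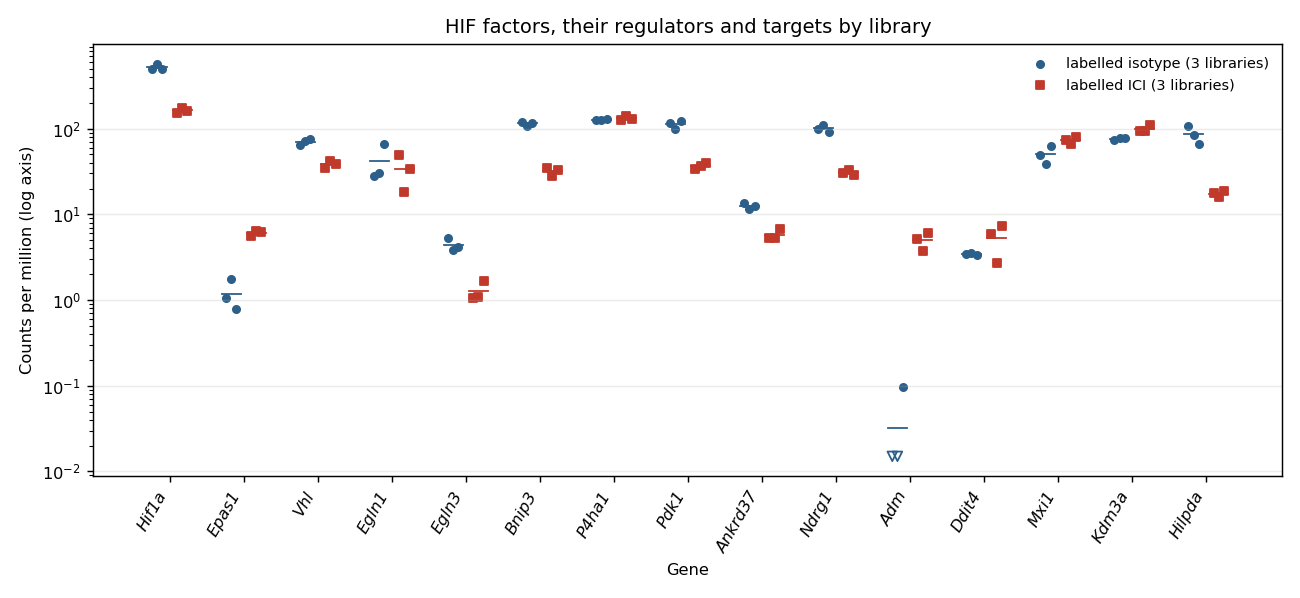
CPM (log axis) of the 15 HIF pathway genes, blue circles for libraries labelled isotype, red squares for libraries labelled ICI, short lines for means; open triangles mark libraries with 0 counts, drawn at the foot of the axis. Hif1a is higher in every library labelled isotype and Epas1 and Adm in every library labelled ICI. Egln1, P4ha1 and Ddit4 overlap in these CPM, which use library totals.

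Further genes of both pathways, taken from lists of the pathways, were split. Of 23 other glycolysis genes 17 could be tested, of which 8 were lower, 5 higher and 4 not called (median log2 fold change -0.39), against 33.9% lower and 35.0% higher over all genes. The lower ones with the smallest p were Pgm1, which links glycogen to glycolysis (5.27-fold, 22.2 ± 1.98 against 102 ± 3.66 CPM, SD, n = 3), the mitochondrial pyruvate carrier Mpc1 (2.11-fold), the fructose 2,6-bisphosphatase Tigar (4.15-fold) and the transporter Slc2a6 (3.53-fold). Transporter genes differed in direction. Slc2a3 (ENSMUSG00000003153), the high-affinity glucose transporter GLUT3, was at 44.0, 46.5 and 51.1 CPM against 9.51, 8.80 and 9.14 CPM, a 4.47-fold rise (edgeR adjusted p = 1.04e-07), where Slc2a1 fell 5.15-fold. Slc16a7 (MCT2) rose 4.17-fold (63.4, 59.0 and 58.1 against 11.03, 11.76 and 14.87 CPM, edgeR adjusted p = 4.69e-07), where Slc16a1 and Slc16a3 fell. For both risen genes the groups stood apart. Slc2a8 (1.93-fold) and the muscle enolase Eno3 (1.41-fold, edgeR adjusted p = 0.0143) were the other higher genes with the smallest p. The call of Eno3 was lost against a 1.5-fold change (adjusted p = 0.729) and without replicate 1 or 2 labelled ICI (0.0564 and 0.0521) or replicate 1 labelled isotype (0.0627).

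Of 30 other HIF pathway genes 24 could be tested, of which 11 were lower, 7 higher and 6 not called (median log2 fold change -0.26), where 33.9% of all genes were lower and 35.0% higher. Mif, which encodes macrophage migration inhibitory factor, was at 29.8, 34.1 and 30.6 CPM against 363, 281 and 352 CPM, 12.1-fold lower (edgeR adjusted p = 1.64e-08). Ak4, a mitochondrial adenylate kinase, was at 0.351, 0.295 and 0.836 CPM against 13.07, 13.91 and 13.05 CPM, 31.3-fold lower (edgeR adjusted p = 2.44e-07). Glycogen synthase Gys1 and Fam162a fell 4.02-fold and 3.97-fold. Higher were P4ha2, a relative of P4ha1 (3.19-fold, 9.90 ± 1.06 against 2.68 ± 0.422 CPM, SD, n = 3), the nuclear receptor gene Rora (3.95-fold), Cited2, which competes with HIF for its coactivator (1.55-fold, edgeR adjusted p = 9.19e-05), and the demethylase gene Kdm4c (1.31-fold, edgeR adjusted p = 0.0018). The last 2 did not pass against a 1.5-fold change (adjusted p = 0.232 and 1).

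**Figure D5:**
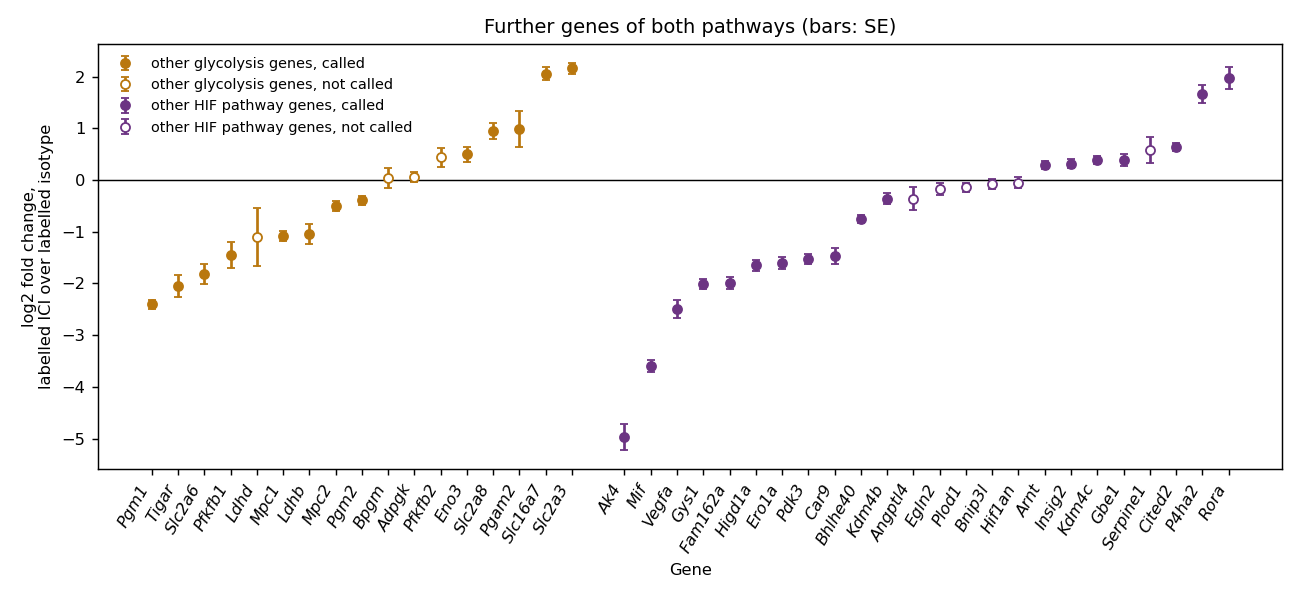
Log2 fold change with SE of the 17 other glycolysis genes (ochre) and 24 other HIF pathway genes (purple) that could be tested, ordered within each list, open circles not called. Glycolysis genes run from -2.40 for Pgm1 to 2.16 for Slc2a3, and HIF pathway genes from -4.97 for Ak4 to 1.98 for Rora.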

How the data were processed

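Raw counts of 6 libraries, as the authors deposited them, came in 1 table of Ensembl genes without normalization. Per the labels' protocols, RNA was amplified with a SMART-seq V4 low-input kit into libraries that carry no strand and read as pairs. STAR 2.7.10a, Salmon 1.10.1 and build GRCm39 are listed, per the submitters' processing notes, without their roles. Annotation and filters: not given in the sources used here. Columns were tied to samples by library name. Symbols matched 52029 identifiers (91.3%); Ero1a was matched through a RefSeq synonym, and of 2 identifiers named Aldoa the one with more counts was used.

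Counts were tested in edgeR 4.0.16 (R 4.3.3, limma 3.58.1) with TMM factors, filterByExpr (minimum count 10, leaving 14575 genes with 99.9% of counts) and the robust quasi-likelihood F test, with Benjamini-Hochberg adjustment over all genes tested. The labels call the replicates biological, and p-values measure the spread between these libraries. SE came from the fold change and F. Printed CPM values use library totals, so fitted folds differ from their ratios by the TMM factors (0.921 to 1.11). Overlap between groups was judged on these CPM and may differ on the scale of the test. Levels per kilobase use all annotated exons of GENCODE M21 (GRCm38). Family ratios used counts plus 0.5. RefSeq promoters are of GRCm38.p6.

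Alternatives were DESeq2 1.42.0, limma-voom, other scalings, filters and a 1.5-fold test, removal of a length trend (lowess span 0.3, 97.6% of genes with a length), a replicate block, each replicate left out, replicates 1 and 2 alone and, chosen after seeing the data, the legacy edgeR fit. Members and lists were chosen with earlier results of these data known. All members are described; of each list of other pathway genes, the 4 called higher and the 4 called lower with the smallest p are named. No gene coordinates are given, since the annotation used here is of another build.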

Additional observations from a re-analysis of the deposited data

How the results depend on the processing

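The 8 HIF pathway members called lower stayed at 8 under all 18 alternatives. The glycolysis members called lower numbered 18 to 20 over them, 19 to 20 when 1 replicate was left out. HIF pathway members called higher were 2, but 4 with upper-quartile factors, with library totals alone and with the strict filter (50 counts in 3 libraries), and 3 with the replicate block, without replicate 2 labelled ICI, without replicate 3 labelled isotype and in replicates 1 and 2 alone. Against a 1.5-fold change the calls over all genes dropped from 10040 to 5520 (2410 lower, 3110 higher). Upper-quartile factors and library totals shifted the median (log2) over all genes, 0.03, to 0.21 and 0.23, that of the glycolysis members, -2.12, to -1.94 and -1.92, and turned the split over all genes to 6155 higher and 3849 lower, and 6255 and 3723. For 29 of 36 tested members no alternative changed call or direction. Signs turned only in members that were not called: P4ha1 (0.03 with upper-quartile factors, 0.05 with library totals), Egln1 (0.04 in replicates 1 and 2 alone) and Kdm3a (-0.0041 with the length trend removed); the cause was not tested. Replicates 1 and 2 alone were tried because replicate 3 of each group held 2786 (ICI) and 1844 (isotype) Xist counts against 0 to 12 in the other libraries; 18 glycolysis members were lower there. With the replicate block, 9992 genes were called and 20 glycolysis and 8 HIF members were lower; Mxi1 was called higher (adjusted p = 0.0139). Deviations of same-numbered libraries correlated at 0.034, 0.062 and 0.128, and those of the other combinations at -0.136 to 0.09. With so few libraries this cannot decide whether the numbers pair the samples. Replicate 3 stood apart in both groups in Xist, and also in Y-linked counts (6 labelled ICI and 130 labelled isotype, against 3620 to 5821 in the other libraries). By these counts replicate 3 of each group was mostly or wholly female and replicates 1 and 2 male, so each group mixed the sexes. The labels state no sex. For the family ratios, the paired mean differences equal the unpaired ones, and no sign turned; a paired exact test cannot go below p = 0.25. Depth limits Eno2, Adm and Egln3, and intervals cover counting error only.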
